A study of Bos taurus
Mus musculus with 10 samples.

Results

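The ERK feedback genes considered here are SPRY1, SPRY2, SPRY4, DUSP4, DUSP5, DUSP6, ETV4, ETV5 and EGR1, 9 genes that were chosen by symbol among 27590 gene IDs of a bovine table and by NCBI gene ID among 31349 IDs of a mouse table. All 9 passed the filter on low values in both tables, where 18506 bovine and 15871 mouse genes were tested. The tables come from 10 co-culture wells, with bovine embryonic stem cells of line 1, 2, 4, 8 or 11 on mouse embryonic fibroblasts as feeders. In 5 wells, 1 per line, the medium lacked IWR-1 for 1 day (the IWRR wells); the 5 partner wells kept medium with 2.5 µM IWR-1 (the IWR wells), a tankyrase inhibitor that lowers Wnt/beta-catenin signalling. All wells had mTeSR1-based medium and wild-type cells. The stem cell lines came from blastocysts of day 7.5, and the feeders, from CD-1 fetuses of stage E13.5, had been arrested with mitomycin C. Whether the feeders of the 10 wells were 1 preparation or several was not stated, so p-values for the mouse table measure the spread between wells, which may be technical.

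Growth factors such as FGF2 act through receptor tyrosine kinases and the RAS-RAF-MEK-ERK relay, and active ERK induces genes that damp the same relay. Sprouty proteins restrain signalling between receptor and RAF, and dual-specificity phosphatases of the DUSP family remove the activating phosphates from MAP kinases. The ETS factors ETV4 and ETV5 and the zinc finger factor EGR1 carry the transcriptional response. Transcript levels of such genes are widely used as a readout of FGF/ERK signalling in pluripotent cells and in fibroblasts.

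Values are the deposited normalised read counts, which behave as reads divided by 1 scaling factor per library. The libraries held 48064953 to 64345738 recovered reads on bovine genes and 17101894 to 35223039 on mouse genes. Changes are log2(value + 1) of the IWRR well minus that of the IWR well of the same line, tested with limma over all genes of a table with the line as a block and called at a Benjamini-Hochberg adjusted p under 0.05. Values are compared within a gene only, since no transcript lengths were used. The marker sums are the exception: they add counts over genes and so follow the most abundant genes of a list. The mouse share of a well's reads was 26.8% ± 8.45 without IWR-1 and 30.4% ± 7.57 with it (SD, n = 5 each), lower in 5 of 5 lines (exact two-sided sign-flip permutation test, p = 0.063, the smallest that 5 pairs allow). In such bulk samples fewer feeder cells, less RNA per feeder cell, more stem cells and more RNA per stem cell cannot be told apart. The handling of reads that fit both genomes was not stated. Among the stem cell markers, 10 of 11 in the bovine table passed the filter, POU5F1, SOX2 and NANOG included, and DPPA4 was below 10 in every library. Bovine fibroblast and mesenchyme markers summed to 251999 without IWR-1 and 216834 with it in line 4, against 32770 to 120763 without it and 25902 to 81873 with it in the other lines. The feeders' identity was not checked, because no mouse markers could be named from the tables used here.

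No ERK feedback gene of the bovine stem cells passed the test after IWR-1 removal. Of the 9 members limma called 0, where 0.951% of all tested bovine genes were called, 0.886% upward and 0.0648% downward. At an unadjusted p under 0.05 there were 2 of 9, SPRY2 and EGR1, where 10.1% of all genes reached that level; edgeR and DESeq2 on recovered reads called 0. All 9 log2 fold changes were below 0, from -0.26 to -0.020 with a median of -0.079, where 51.6% of all tested genes were below 0 and their median was -0.0046. Some of these signs changed with the fit. Of 108 bovine member changes under the alternative fits 100 kept their sign and 8 turned, all with the mouse share as covariate or 1 line left out. With the mouse share of reads as a further term DUSP4 (0.16 ± 0.18 SE), DUSP5 (0.17 ± 0.23 SE), DUSP6 (0.071 ± 0.14 SE) and ETV5 (0.016 ± 0.15 SE) were above 0. SPRY2 was then at -0.070 ± 0.13 SE. The share was lower in the IWRR well of every line, so that fit separates it poorly from the medium, and these values do not show a reversal. SPRY1 was above 0 without line 4, SPRY4 without line 8 and DUSP4 without line 8 or 11. The 95% intervals of the 9 changes, each for its gene alone, lay between -0.47 and 0.16, that is between -27.9% and 11.8%. In no member were all 5 IWRR wells on 1 side of all 5 IWR wells, a separation that 0.113% of all genes showed.

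Among the Sprouty genes, SPRY2 was the member with the smallest p in the stem cells. In lines 1, 2, 4, 8 and 11, in that order, its normalised read counts were 5529, 5992, 13975, 5053 and 7587 without IWR-1, against 6519, 7204, 14584, 5630.2 and 9552 with it. Each IWRR well was lower than its partner; the groups overlapped, and line 4 was far above the other lines in both media. The log2 fold change was -0.21 ± 0.057 SE, with an interval of -0.34 to -0.085 and a limma adjusted p of 0.156, so it was not called; it was lower in 5 of 5 lines, as were 4.92% of all genes. SPRY4, another Sprouty inhibitor, had 19667, 28439, 19144, 12541 and 25021 without IWR-1, against 20325, 23872, 19624, 16074 and 27536 with it. It was higher in the IWRR well of line 2 and lower in that of the other 4 lines, most so in line 8. Its log2 fold change was -0.065 ± 0.080 SE (interval -0.24 to 0.11, limma adjusted p = 0.894). SPRY1 had 4824, 8041, 11811, 7501 and 14439.9 without IWR-1, against 4753, 7576, 13314, 7655 and 15147 with it, a log2 fold change of -0.033 ± 0.056 SE (interval -0.16 to 0.092). Within a line the media differed by 0.17 on the log2 scale at most, whereas the highest line, 11, held 2.99 times the count of line 1 without IWR-1 and 3.19 times with it.

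Of the phosphatase genes, DUSP6 encodes a cytoplasmic phosphatase selective for ERK and is a widely used transcript readout of the pathway. Its normalised read counts were 16455, 14335, 16092, 13740.5 and 20103 without IWR-1, against 17395, 14046, 15100.5, 15097 and 22081 with it. It was lower in the IWRR wells of lines 1, 8 and 11 and higher in those of lines 2 and 4, by no more than 0.14 on the log2 scale in any line. Its log2 fold change of -0.046 ± 0.059 SE had an interval of -0.18 to 0.084 (limma adjusted p = 0.899). DUSP4, a nuclear phosphatase, had 17448, 17470.4, 7704, 11772 and 14745 without IWR-1, against 17685, 14260.1, 7128, 14108 and 17207 with it. Its within-line changes went both ways, with 0.29 in line 2 and -0.26 in line 8, and averaged -0.020 ± 0.081 SE (interval -0.20 to 0.16). DUSP5, a nuclear phosphatase for ERK, was the least counted member, with 406, 405, 164, 439.8 and 207 without IWR-1, against 481, 499, 137, 459 and 266 with it. It was lower in 4 of 5 lines and higher in line 4, where it had 142 reads without IWR-1 and 115 with it; the log2 fold change was -0.14 ± 0.11 SE (interval -0.39 to 0.10, limma adjusted p = 0.794).

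Of the transcription factor genes, EGR1, an immediate-early gene, had the most negative log2 fold change of the 9. Its normalised read counts were 788, 1035, 1175, 756 and 748 without IWR-1, against 963, 937, 1387, 1101 and 982 with it. It was lower in 4 lines and higher in line 2, and the groups overlapped. The log2 fold change was -0.26 ± 0.094 SE (interval -0.47 to -0.056, limma adjusted p = 0.335). With 1 line left out it ranged from -0.37 (without line 2) to -0.19 (without line 8). The limma adjusted p then ranged from 0.0584 (without line 2) to 0.802 (without line 11). ETV4 had 7342, 4297, 5802, 5564 and 4386 without IWR-1, against 8159.6, 5132, 5640.4, 5973 and 4662 with it, and was lower in each IWRR well but that of line 4. Its log2 fold change was -0.11 ± 0.057 SE (interval -0.24 to 0.015, limma adjusted p = 0.588). ETV5 had 10209.7, 12309, 9513, 8159.8 and 10803 without IWR-1, against 10211, 11232, 10149, 9345 and 12725 with it. Both wells of line 1 were nearly equal, line 2 was higher without IWR-1 and lines 4, 8 and 11 were lower; the log2 fold change was -0.079 ± 0.065 SE (interval -0.22 to 0.064).

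**Figure D1:**
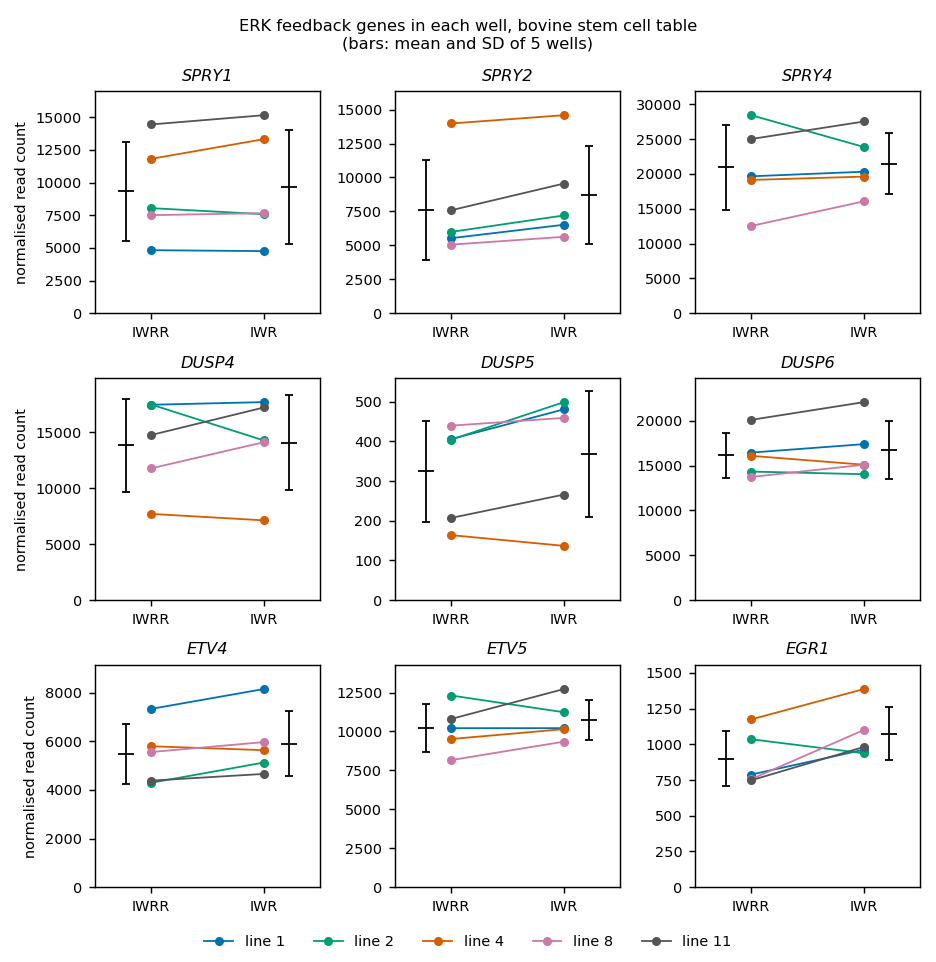
Normalised read counts of the 9 ERK feedback genes in each well of the bovine table, with wells without IWR-1 (IWRR) left of wells with it (IWR), 1 colour per line and a line joining both wells of a cell line. The bars give the mean and SD of 5 wells. For SPRY2, line 4 stands at 13975 and 14584, above the other lines in both media, and the joining lines of most genes are close to flat.

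For each bovine member the line took a larger part of the spread than the medium. The line took 59.3% (EGR1) to 99.4% (SPRY1) of the sum of squares of a member's log2 values. Its median was 94.3%, against 84.5% over all tested genes. The medium took 0.0456% (DUSP4) to 23.3% (EGR1). As 5 lines stand against 2 media, the line would take the larger share even without a difference, so for EGR1 the shares do not rank line above medium. Line 4 was the highest line in both media for SPRY2 and EGR1 and the lowest for DUSP4 and DUSP5; over all tested genes it was the highest in both for 19.1% and the lowest for 18.4%. Line 4 also had the highest mouse share of reads, 41.4% without IWR-1 and 42.3% with it, and the highest sum of fibroblast markers; the part of either in these levels was not tested. Line 8 was lowest in both media for 3 members, SPRY2, SPRY4 and ETV5, as it was for 10.9% of all genes. Line 11 was highest for SPRY1 and DUSP6.

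The members' direction also differed between lines. In lines 8 and 11 each of the 9 members was lower in the IWRR well, with median changes of -0.16 and -0.22, where 49% and 51.3% of all tested genes were lower. In line 1, 8 of 9 were lower (51% of all genes), in line 4 it was 5 of 9 (51.1%) and in line 2 only 3 of 9 (46.7%). The 8 of line 1 include ETV5, whose change there was only -0.00012. In line 2, SPRY4, DUSP4, ETV5 and EGR1 were higher by 0.13 to 0.29 on the log2 scale, whereas SPRY2, DUSP5 and ETV4 were lower by 0.26 to 0.30. The mouse share of reads was lower in every IWRR well, with differences of -2.26 percentage points in line 1, -4.19 in line 2, -0.920 in line 4, -4.22 in line 8 and -6.63 in line 11; its part in these counts was not tested. Members of 1 well share a library, so these counts were given no test.

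**Figure D2:**
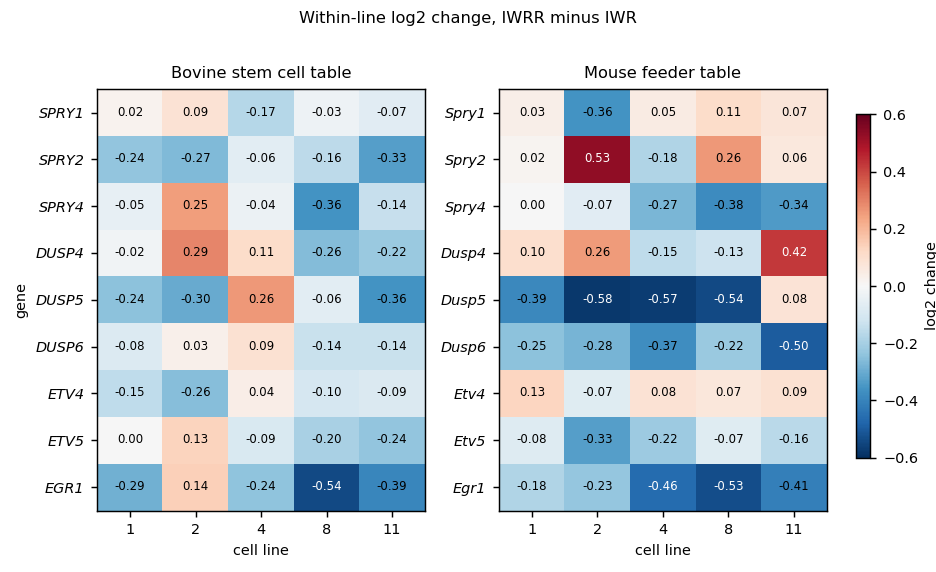
Within-line log2 change (IWRR minus IWR) of each ERK feedback gene by cell line, bovine table left and mouse table right, with red for higher and blue for lower in the IWRR well and the value printed in each cell. In the bovine table the columns of lines 8 and 11 are below 0 for all 9 genes and that of line 2 for 3 of 9. In the mouse table the rows of Spry4, Dusp6, Etv5 and Egr1 are below 0 in all 5 lines. Spry4 in line 1, at -0.0031, is printed as 0.00.

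In the mouse feeders, Dusp6 and Egr1 fell after IWR-1 removal. Of the 9 members 2 fell, 0 rose and 7 were not called, where 4.19% of all tested mouse genes were called, 2.14% upward and 2.05% downward. At an unadjusted p under 0.05 there were 5 of 9, Dusp6, Egr1, Dusp5, Spry4 and Etv5, all with negative changes, where 16.2% of all genes reached that level. Lower in 5 of 5 lines were 4 members, Spry4, Dusp6, Etv5 and Egr1, as were 7.83% of all genes. For Spry4 the change in line 1 was only -0.0031 on the log2 scale. The log2 fold change was negative for 6 of the 9, against 50.1% of all genes, with a median of -0.17, against -0.00041 for all tested genes. The wells of both media overlapped for each of the 9, where 0.554% of all genes did not overlap.

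Dusp6 had normalised read counts of 9255, 7567, 6269, 8616 and 6241 in the IWRR wells of lines 1, 2, 4, 8 and 11, against 10986, 9192, 8126, 10049 and 8815 in their IWR wells. Each IWRR well was lower than its partner, and the highest IWRR wells, of lines 1 and 8, stood above the lowest IWR wells. The mean was 7589.6 ± 1359 without IWR-1 and 9434 ± 1111 with it (SD, n = 5 each), and the log2 fold change -0.32 ± 0.063 SE (interval -0.46 to -0.19, limma adjusted p = 0.0139), a change of -20.1%. Egr1 had 1963, 3129, 2084, 1061 and 1558 without IWR-1, against 2227, 3676, 2868, 1537 and 2073 with it. Again each IWRR well was lower, with the smallest difference in line 1 and the largest in line 8. The mean was 1959 ± 767 without IWR-1 and 2476 ± 822 with it (SD, n = 5 each), and the log2 fold change -0.36 ± 0.069 SE (interval -0.51 to -0.21, limma adjusted p = 0.0115), a change of -22.3%.

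Both calls were lost when certain lines were left out, though the changes stayed below 0. Dusp6 was not called without line 1, 4 or 11 (limma adjusted p = 0.0581, 0.0854 and 0.111) and Egr1 was not called without line 4 or 11 (0.0763 and 0.0762), while the log2 fold changes moved only over -0.35 to -0.28 for Dusp6 and -0.41 to -0.32 for Egr1. The mouse share of reads was lower in all 5 IWRR wells as well; with that share as a further term in the fit, the log2 fold changes were -0.25 ± 0.15 SE for Dusp6 and -0.33 ± 0.16 SE for Egr1, and no gene of the table was called.

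Dusp5 had the most negative fold change of the feeder members without being called. Its normalised read counts were 339.6, 507, 317, 271 and 582 without IWR-1, against 445, 758, 471, 395 and 549 with it. Lines 1, 2, 4 and 8 were lower by 0.39 to 0.58 on the log2 scale, and line 11 was higher by 0.084. The log2 fold change was -0.40 ± 0.10 SE (interval -0.63 to -0.17, limma adjusted p = 0.0553); DESeq2 called it (adjusted p = 0.0229), and so did limma without line 11 (-0.52, adjusted p = 0.0245). It was not called without the filter on low values (limma adjusted p = 0.140) or with the mouse share of reads as a further term, where its log2 fold change was -0.73 ± 0.21 SE (0.648). Spry4 had 3976, 4032, 3144, 2579 and 2435 without IWR-1, against 3985, 4231, 3797, 3351 and 3087 with it. Lines 4, 8 and 11 carried the difference, and lines 1 and 2 were nearly equal between media. Its log2 fold change was -0.21 ± 0.070 SE (interval -0.37 to -0.060, limma adjusted p = 0.130). Etv5 had 1853, 1651, 1533, 1622 and 1574 without IWR-1, against 1956, 2076, 1781, 1706 and 1761 with it, with -0.17 ± 0.064 SE on the log2 scale (interval -0.31 to -0.033, limma adjusted p = 0.187). The within-line changes of Etv5 were all below 0, the largest in line 2.

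The other 4 feeder members had intervals that spanned 0. Spry1 had 1527, 1049.9, 1897, 599 and 589 without IWR-1, against 1492, 1347, 1831, 554 and 561 with it. Lines 1 and 4 were high and lines 8 and 11 low in both media, and line 2 alone was lower without IWR-1; its log2 fold change was -0.019 ± 0.079 SE (interval -0.19 to 0.15). Spry2 had 1756, 2664, 1400.5, 2373 and 1709.6 without IWR-1, against 1734, 1839.7, 1588, 1981 and 1636 with it. It was higher by 0.53 in line 2 and lower by 0.18 in line 4, with a log2 fold change of 0.14 ± 0.091 SE (interval -0.059 to 0.34). Dusp4 had 4563, 7329.5, 5565, 2699.98 and 6764 without IWR-1, against 4255, 6137, 6174, 2947 and 5044 with it, with 0.10 ± 0.084 SE on the log2 scale (interval -0.083 to 0.29). Its changes were 0.42 in line 11 and 0.26 in line 2, but -0.15 in line 4 and -0.13 in line 8. Etv4 had 1829, 1747, 1809, 1466 and 1665 without IWR-1, against 1673, 1839.7, 1705, 1399 and 1564 with it, and 0.059 ± 0.061 SE on the log2 scale (interval -0.074 to 0.19). It was higher in the IWRR well in 4 lines and lower in line 2.

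**Figure D3:**
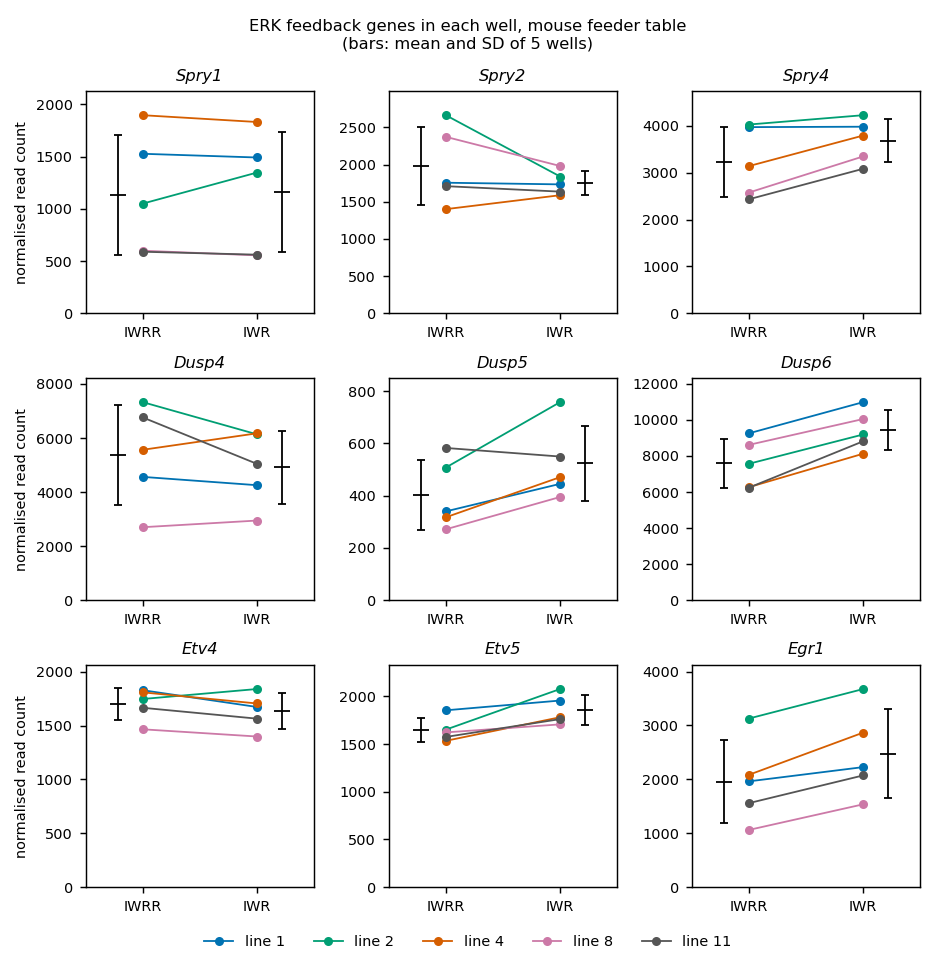
Normalised read counts of the 9 ERK feedback genes in each well of the mouse table, drawn like the plot of the bovine table, with IWRR wells left of IWR wells and the mean and SD of 5 wells beside them. The joining lines of Dusp6 and Egr1 climb toward the IWR wells in all 5 lines, whereas those of Spry2 and Dusp4 go both ways.

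In the feeders the line took 44.4% (Etv5) to 98.5% (Spry1) of a member's sum of squares, with a median of 76.2% against 69.6% over all genes. The medium took 0.0172% (Spry1) to 42.4% (Etv5), with 40.7% for Dusp6. Here too 5 lines stand against 2 media, so a larger share for the line does not by itself mean a larger difference. Line 8 was again the line lowest in both media for the most members, 4, Dusp4, Dusp5, Etv4 and Egr1, as it was for 10% of all tested mouse genes, and line 2 was highest for Spry4 and Egr1. Line 4, which had the highest bovine SPRY2, had the lowest mouse Spry2 in both media. Fewest members were lower in the IWRR well of line 11, 4 of 9, where 49.5% of all tested mouse genes were lower. In line 1 it was 5 of 9 (50.4%), in line 8 it was 6 of 9 (51.3%), and in lines 2 and 4 it was 7 of 9 each (48.5% and 49.5%).

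Both species were then compared gene by gene, with the bovine within-line change minus the mouse one in the same wells. For DUSP6 the difference averaged 0.28 ± 0.15 on the log2 scale (SD, n = 5 lines), with the bovine change above the mouse change in 5 of 5 lines. For ETV4 it averaged -0.17 ± 0.084 (SD, n = 5 lines), with the bovine change below the mouse change in 5 of 5. Both gave p = 0.063 in the exact two-sided sign-flip permutation test, the smallest p that 5 pairs allow, and 0.281 adjusted over the 9 genes. For SPRY2 the difference was -0.35 ± 0.33 (exact permutation p = 0.125, adjusted p = 0.375), with 4 of 5 lines below 0, and for SPRY4 it was 0.15 ± 0.15 (exact permutation p = 0.188, adjusted p = 0.422). For EGR1 it was 0.10 ± 0.19 (exact permutation p = 0.375), with 3 of 5 lines above 0. The remaining differences were -0.014 ± 0.27 for SPRY1, -0.12 ± 0.33 for DUSP4, 0.26 ± 0.47 for DUSP5 and 0.093 ± 0.23 for ETV5, with exact permutation p-values of 0.313 to 0.938. This test could not pass 0.05 at any size of difference, so its p-values say nothing for or against a difference between stem cells and feeders.

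**Figure D4:**
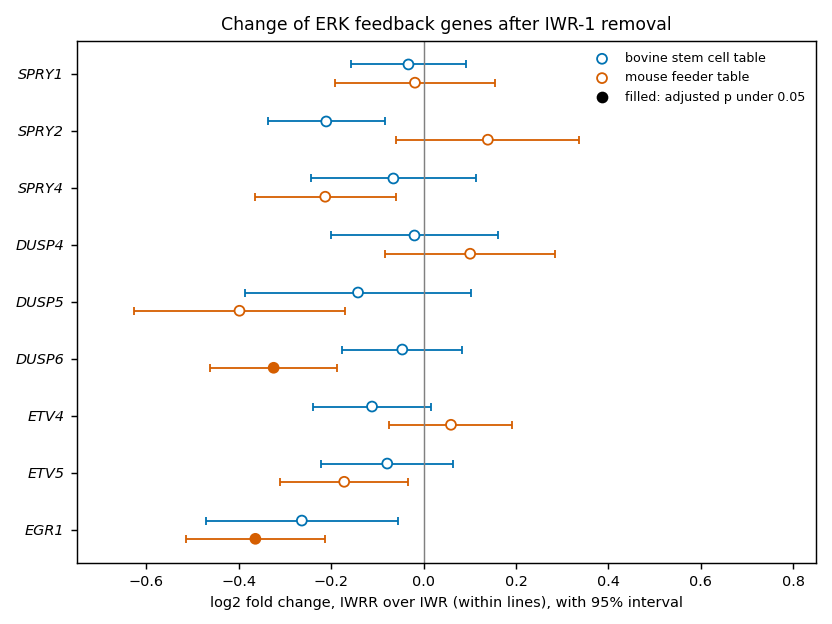
Log2 fold change (IWRR over IWR, within lines) of each ERK feedback gene with its 95% interval, bovine table above mouse table in each row; filled points have a limma adjusted p under 0.05. The filled points are mouse Dusp6 at -0.32 and mouse Egr1 at -0.36, and the bovine points lie between -0.26 and -0.020.

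The other genes of the pathway were read in the bovine table, by role, from 7 lists. Counts in these lists stand against 0.886% of all tested genes called upward, 0.0648% called downward, 10.1% at an unadjusted p under 0.05 and 51.6% with a negative log2 fold change. With the mouse share of reads as a further term no gene of the table was called. Of 17 tested growth factor ligands 1 rose and 0 fell, the other 16 missing the threshold, and 9 had an unadjusted p under 0.05; the median log2 fold change was 0.34, against -0.0046 for all tested genes, and 14 were above 0. The one that rose was PDGFB, a platelet-derived growth factor chain, with normalised read counts of 133, 217, 317, 324 and 328 without IWR-1, against 87.1, 86.2, 179.7, 154 and 217 with it. Its log2 fold change was 0.88 ± 0.14 SE (limma adjusted p = 0.0188), higher in 5 of 5 lines; it was not called without line 1 or 11, or without the filter on low values (limma adjusted p = 0.0579). None of 14 receptor tyrosine kinase genes was called by limma or edgeR on all 5 lines, with 3 at an unadjusted p under 0.05 (median 0.064). The nearest was PDGFRB, a receptor for PDGFB, at 0.56 ± 0.12 SE (limma adjusted p = 0.0613). DESeq2 called PDGFRB (adjusted p = 0.000298), and so did limma without line 8 (adjusted p = 0.0489). None of 22 genes of the RAS-RAF-MEK-ERK relay was called by limma or edgeR on all 5 lines, with 4 at an unadjusted p under 0.05 (median 0.025). The scaffold gene KSR1 was nearest at 0.34 ± 0.081 SE (limma adjusted p = 0.0988). DESeq2 called KSR1 (adjusted p = 0.0179), and so did limma without line 8 (adjusted p = 0.0309).

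Other brakes of the pathway were for the most part not called. Of 20 further negative regulators, among them SPRED and RASA family genes and NF1, limma, edgeR and DESeq2 called 0, with 2 at an unadjusted p under 0.05, and the median was 0.0035. The nearest was RGS2, a regulator of G protein signalling, at 0.23 ± 0.092 SE (limma adjusted p = 0.415). Of 10 other dual-specificity phosphatase genes 1 rose, DUSP8, whose product acts mainly on stress-activated MAP kinases, at 0.36 ± 0.070 SE (limma adjusted p = 0.0471); it was higher in 5 of 5 lines and was not called when any 1 of the 5 lines was left out, with reads scaled to CPM by library total, or without the filter. The median of these 10 was 0.032.

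Among 27 other immediate-early and ERK-responsive genes 2 rose, 0 fell and 25 were not called (median 0.083, 18 above 0). Of the 27, 7 had an unadjusted p under 0.05. Of all tested bovine genes 0.886% were called upward, 51.6% had a negative log2 fold change and 10.1% had an unadjusted p under 0.05. These shares also stand beside the ETS factor and marker counts that follow. CCND1, encoding cyclin D1 and also a Wnt target, had 1709.5, 1869.7, 5399, 1155 and 1961 without IWR-1, against 753, 772, 3814, 501 and 654 with it. Line 4 was highest in both media, and each IWRR well exceeded its partner. The log2 fold change was 1.15 ± 0.12 SE (limma adjusted p = 0.00270), and the call held with any 1 line left out. With the mouse share of reads as a further term the log2 fold change was 0.55 ± 0.17 SE and was not called. FOSL2, an AP-1 subunit, was at 0.84 ± 0.14 SE (limma adjusted p = 0.0236) and missed the threshold without line 1, 4 or 11, with CPM and without the filter. Of 11 other ETS factor genes ETS1 rose, at 0.44 ± 0.080 SE (limma adjusted p = 0.0352), missing the threshold without line 1, 2, 4 or 11, with CPM and without the filter, and 10 were not called (median -0.018; 2 at an unadjusted p under 0.05). The sum of bovine fibroblast and mesenchyme markers, a list that also holds PDGFRB, was higher in the IWRR well in 5 of 5 lines. Of the 18 tested 2 rose, TAGLN and ACTA2, and 13 were above 0 (median 0.25). Those below 0, of which 0 were called, included COL1A2 (-0.30), S100A4 (-0.35) and DCN (-0.24). The sum of trophoblast and epithelial markers was also higher in 5 of 5, and of the 8 tested 3 rose, the keratin genes KRT18, KRT8 and KRT19. KRT19 missed the threshold without line 1, 4 or 11 and without the filter on low values. Of the 8, 5 were above 0, while TFAP2A (-0.70), EPCAM (-0.048) and CDH1 (-0.031) were below 0 and not called. CDX2, GATA2, GATA3 and ELF5 did not pass the filter. The sum of stem cell markers was higher in 0 of 5. Of the 10 tested 5 were above 0, and DNMT3B was lowest at -0.27, not called. The 1 that rose was NANOG, which missed the threshold without line 1, 2, 4 or 11, with CPM (limma adjusted p = 0.0723) and without the filter (0.0821). Among hypoblast and endoderm markers GATA4 and SOX17 were below 10 in every library. PDGFRA, also on the fibroblast list, averaged 261 without IWR-1 and 264 with it. The sum of the hypoblast and endoderm list in line 4 was 806 without IWR-1 and 850 with it. In the other lines it was 176 to 269 without IWR-1 and 173 to 287 with it. The part of these cell types in the results was not tested.

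**Figure D5:**
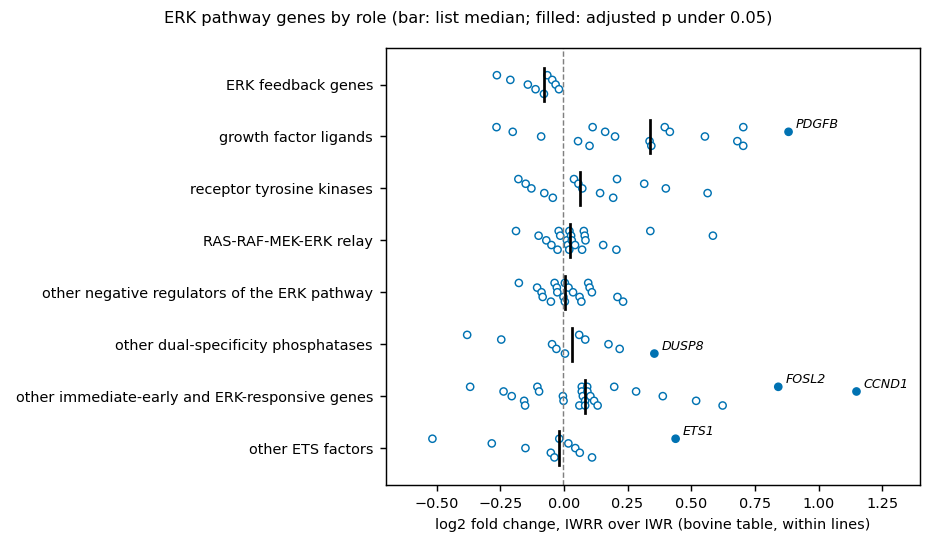
Log2 fold change (IWRR over IWR, bovine table, within lines) of each tested gene, grouped by role in the ERK pathway, with the list median as a black bar, the median of all tested genes as a dashed line and called genes filled and named. The 9 ERK feedback genes lie below 0, the ligand list has its median at 0.34, and 5 genes are filled.

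Each member was also set beside all other tested bovine genes by the Pearson r of log2 values over the 10 libraries, in which each line is present as a pair of wells, so that r reflects differences between lines as well as between media; it was given no p. ETV5 was most like another member, SPRY4 (r = 0.968), and then TRERF1 (r = 0.962). SPRY4 was most like CMIP (r = 0.986) and ABL1 (r = 0.977), SPRY2 like PLK3 (r = 0.991) and CNOT6 (r = 0.978), and SPRY1 like MIR421 (r = 0.990) and BCORL1 (r = 0.985). DUSP4 was most like SPMIP6 (r = 0.972) and GTF2A1 (r = 0.968), and DUSP5 like SUPV3L1 (r = 0.987) and TMEM82 (r = 0.987). ETV4 was most like EME1 (r = 0.967) and C9H6orf120 (r = 0.958), EGR1 like CAND2 (r = 0.917) and CTNS (r = 0.913), and DUSP6, with the lowest values of the 9, like C19H17orf67 (r = 0.885) and STAT5A (r = 0.885). None of these genes was called between media.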

How the data were processed

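Poly(A) RNA was sequenced from 10 co-culture wells, and mapped per the labels to ARS-UCD1.3 (bovine) and to GRCm39 (mouse). Tools named without a role in the submitters' processing notes are featureCounts 1.5.0-p3, StringTie 1.3.3b, HISAT2 2.0.5 and fastp. Each species has 1 table, in which the authors deposited a scaled signal per gene; dividing by the step between values gave whole reads for 100% of positive values in every library (tolerance 0.01 reads). No header records the scaling. The mouse table held 2 columns without a sample label, not used here, with which the scaling may have been set.

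Symbols came from RefSeq's table of another assembly, ARS-UCD2.0, which held 24660 of the 27590 bovine IDs, so coordinates were left out. It held 0 of the 31349 mouse IDs, and the 9 mouse members were taken by NCBI ID.

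Genes reaching 10 in 5 or more libraries were tested with limma 3.58.1 (R 4.3.3, intensity trend) on log2(value + 1), a scale that understates changes of low genes, with the line as a block. Limma moderates variances across genes, so its errors are not those of the 5 lines alone. The lines pair the wells per the labels; deviations from group means correlated within lines at 0.617 to 0.883 (bovine) and 0.488 to 0.725 (mouse). edgeR 4.0.16 and DESeq2 1.42.0 on recovered reads, no block, CPM, pseudocount 5, no filter, the mouse share as covariate and each line left out were alternatives. Members had 115 to 28349 reads per bovine library and 224 to 13484 per mouse library, a counting error of at most 9.33%. The fit was also run on simulated data with planted changes larger than those of the members. That run does not show whether changes of the members' size would be called. Members and lists were chosen with earlier results of these data known. Genes named beside the members are, per pathway list, up to 4 called genes or else the 1 with the smallest p, and the 2 most alike per member.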

Additional observations from a re-analysis of the deposited data

Results flagged for a closer look

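Of 54 groups of 5 values (9 genes in 2 tables, in both media and as within-line changes), 3 had a sample whose gap to its nearest neighbour was over 0.71 of the group's range; chance flags about 1 in 20 groups. Bovine SPRY2 stood at 13975 normalised reads in the IWRR well of line 4, against 5053 to 7587 in the other IWRR wells. Mouse Spry1 had a log2 change of -0.36 in line 2, against 0.034 to 0.11 in the other lines. Mouse Dusp5 had a log2 change of 0.084 in line 11, against -0.58 to -0.39 in the other lines.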

How the results depend on the processing

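Bovine members called stayed at 0 under every alternative run. Mouse members called, 2 in the line-paired fit, were 2 with edgeR, CPM, pseudocount 5 or no filter, 3 with DESeq2, 0 without the replicate block, 0 with the mouse share as covariate, and 0 to 2 with 1 line left out (0 without line 4; 1, Egr1, without line 1; 1, Dusp5, without line 11). Without the replicate block no gene of either table was called: 0 up and 0 down, and likewise 0 with the covariate. Standard errors of the members spanned 0.13 to 0.23 (bovine) and 0.15 to 0.21 (mouse) with the covariate, against 0.056 to 0.11 (bovine) and 0.061 to 0.10 (mouse) without it. Of all bovine genes 176 were called (164 up, 12 down), 420 with DESeq2 (358 and 62), 90 with CPM (83 and 7), 53 without a filter (51 and 2), and 31 to 184 with 1 line left out (31 to 159 up, 0 to 25 down). Of all mouse genes 665 were called (340 up, 325 down), and 329 without a filter (169 and 160). In the mouse table edgeR called 727 (372 and 355) and DESeq2 called 907 (441 and 466). With CPM 712 mouse genes were called (379 and 333), and with pseudocount 5 it was 694 (353 and 341). With 1 line left out 269 to 936 mouse genes were called (136 to 477 up, 133 to 459 down). Signs of members that were not called turned with the covariate for bovine DUSP4 (0.16), DUSP5 (0.17), DUSP6 (0.071) and ETV5 (0.016) and for mouse Spry1 (0.0018), Spry2 (-0.073) and Dusp4 (-0.21). They also turned for SPRY1 without line 4 (-0.062 to 0.0023 over the 5 lines left out), SPRY4 without line 8 (-0.14 to 0.0078), DUSP4 without line 8 or 11 (-0.098 to 0.041) and mouse Spry1 without line 2 (-0.051 to 0.067); the cause was not tested. The endoderm marker FOXA2, not called at -1.02, turned to 1.09 with the covariate. The bovine minus mouse difference turned for SPRY1 without line 4, 8 or 11 (-0.13 to 0.038 over the 5 lines left out) and for DUSP4 without line 11 (-0.22 to 0.011). On the pathway lists DESeq2 called upward 4 of 17 ligands, 1 of 14 receptors, 1 of 22 relay genes and 5 of 27 immediate-early genes. It also called upward 1 of 10 other dual-specificity phosphatases and 1 of 11 other ETS factors, and 1 ETS factor downward. Over all 18506 tested bovine genes it called 358 upward and 62 downward. Limits: 5 pairs, 1 well per line and medium, and counting error largest for DUSP5 and Dusp5.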
